A study of Mus musculus with 36 samples.

Results

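Cpd-60 and SAHA, 2 inhibitors of histone deacetylases (HDACs), were compared directly in the hippocampus (HIP) of mice, and the genes that separated one drug from the other are described here. The comparison rests on 6 of the 36 arrays of the series, 3 from mice given Cpd-60 at 45 mg/kg and 3 from mice given SAHA at 25 mg/kg, chosen by the treatment and brain region in their labels. Male C57BL/6J mice, as the labels name them (the methods give C57BL/6 mice of 2 suppliers), received 10 daily intraperitoneal injections and tissue was taken 1 h after the last. The methods do not say which mice came from which supplier. Each array held RNA pooled from 2 mice, so that each group of 6 mice gave 3 pools. Vehicle arrays of the same region, 3 pools of mice given the solvent of DMSO, PEG400 and saline alone, are shown beside them. Cpd-60 and vehicle were injected at 7.5 mL/kg and SAHA at 5 mL/kg. The compound, its dose and its volume therefore cannot be told apart in any comparison below that involves SAHA. Between Cpd-60 and vehicle the volume was the same, but the compound and its dose cannot be told apart.

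HDACs remove acetyl groups from lysines of histone tails, and their inhibition leaves chromatin more acetylated, which can raise or lower the transcription of nearby genes. Cpd-60 is a benzamide that binds slowly and prefers HDAC1 and HDAC2, which are class I enzymes. SAHA is a hydroxamate that binds fast and acts on class I and class II enzymes. In the hippocampus such drugs are studied for effects on memory, mood and the response to stress hormones.

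Expression is given as log2 of quantile-normalized intensity, 1 unit being a doubling. A difference is the Cpd-60 mean minus the SAHA mean, with its standard error (SE) from limma's linear model over the 9 HIP arrays of Cpd-60, SAHA and vehicle, and adjusted p values are by Benjamini-Hochberg over all 22275 probes tested. These probes represent 15934 gene symbols. With 3 pools a group, p values measure the spread between pools of 2 mice, and fewer cells of a type cannot be told apart from less RNA per cell.

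Several arrays stood apart before any gene was considered. SAHA pools 2 and 3 were dim, with a raw 95th percentile of intensity of 437.7 and 452, against 665.2 for SAHA pool 1, 644.8 to 825.1 for the Cpd-60 pools and 686.4 to 839.6 for vehicle. All 3 SAHA arrays detected fewer probes (32.1% to 34.3% at a detection p of at most 0.01) than the Cpd-60 arrays (38.6% to 39.2%). The 9 arrays lay on 2 BeadChips, the first with Cpd-60 pools 1 and 2 and SAHA pool 1, the other with Cpd-60 pool 3 and SAHA pools 2 and 3. Over all tested probes, Cpd-60 pool 3 correlated more closely with the SAHA arrays (mean r of 0.992) than with the other Cpd-60 arrays (0.983), and it had the lowest weight of the 9 arrays (0.455) in limma's array quality weights. Without SAHA pools 2 and 3 the SAHA group is 1 pool, assumed to vary like the other groups, and 3.19% of all genes were higher under Cpd-60 and 3.8% under SAHA at an unadjusted p under 0.05. With the raw 95th percentile as a covariate these shares were 2.94% and 3.19%. Counts under either or both settings are given with most gene groups, and their fall from the full fit also holds over all genes (8.88% and 9.85% there). Of 10 tested markers of the hippocampal formation, 7 were higher on every HIP array than on any array of prefrontal cortex (PFC) or nucleus accumbens (NAc), among them Prox1, C1ql2, Fibcd1 and Spink8.

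At an unadjusted p under 0.05, 3976 of the 22275 transcripts (17.8%) separated the drugs, 2076 higher under Cpd-60 (9.32%) and 1900 higher under SAHA (8.53%). A further bar of 1.2-fold left 2063 (9.26%), 1044 higher under Cpd-60 (4.69%) and 1019 higher under SAHA (4.57%). At an adjusted p under 0.05 limma called 0, with a smallest adjusted p of 0.114, and analysis of variance with Tukey's test, which the methods name, also called 0 beside 1439 at an unadjusted p under 0.05. With the BeadChip as a block, 195 transcripts (0.875%) passed the adjusted threshold, 111 higher under Cpd-60 (0.498%) and 84 higher under SAHA (0.377%), and all 195 were among the 2063. In simulated data of this size with 200 transcripts changed by 0.5 log2 units, limma recovered 68.5% at an adjusted p under 0.05. Of those adjusted calls 8.67% were unchanged transcripts, against 61% of the calls at an unadjusted p with 1.2-fold. The simulated noise was independent between probes, with no BeadChip effect and no dim arrays, so these rates need not hold for the real arrays. Because limma called 0 at the adjusted threshold, a gene below is called higher under a drug on its unadjusted p, as a description. Its adjusted p with the BeadChip block is given where the gene carries a result.

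The genes with the largest gaps differed in which drug lay away from vehicle. They were taken from genes with every Cpd-60 pool on one side of every SAHA pool and the same sign on both BeadChips, 408 genes higher under Cpd-60 and 433 higher under SAHA, by size of the difference. Over all transcripts, all 3 pools of one drug lay above all 3 of the other in 18.4% (Cpd-60 above SAHA in 10.2% and SAHA above Cpd-60 in 8.2%). Of the 408 genes, 161 had 257 other tested probes, 208 of them with the same sign, and of the 433, 171 had 232, of which 146 had the same sign. Among the 15 largest higher under Cpd-60, SAHA lay below vehicle at an unadjusted p under 0.05 for 9 and Cpd-60 lay above vehicle for 6, beside 6.47% and 2.84% of all transcripts. Among the 15 largest higher under SAHA, SAHA lay above vehicle for 9 and Cpd-60 below vehicle for 7, beside 5.08% and 3.21%. Their adjusted p values lay between 0.114 and 0.211, and with the BeadChip block 8 of the first 15 and 11 of the other 15 passed. Both comparisons with vehicle share the vehicle pools and are shown side by side only. Genes chosen for a large gap between the drugs tend to have a drug away from vehicle. The excess of those counts over all transcripts follows in part from the choice.

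**Figure D1:**
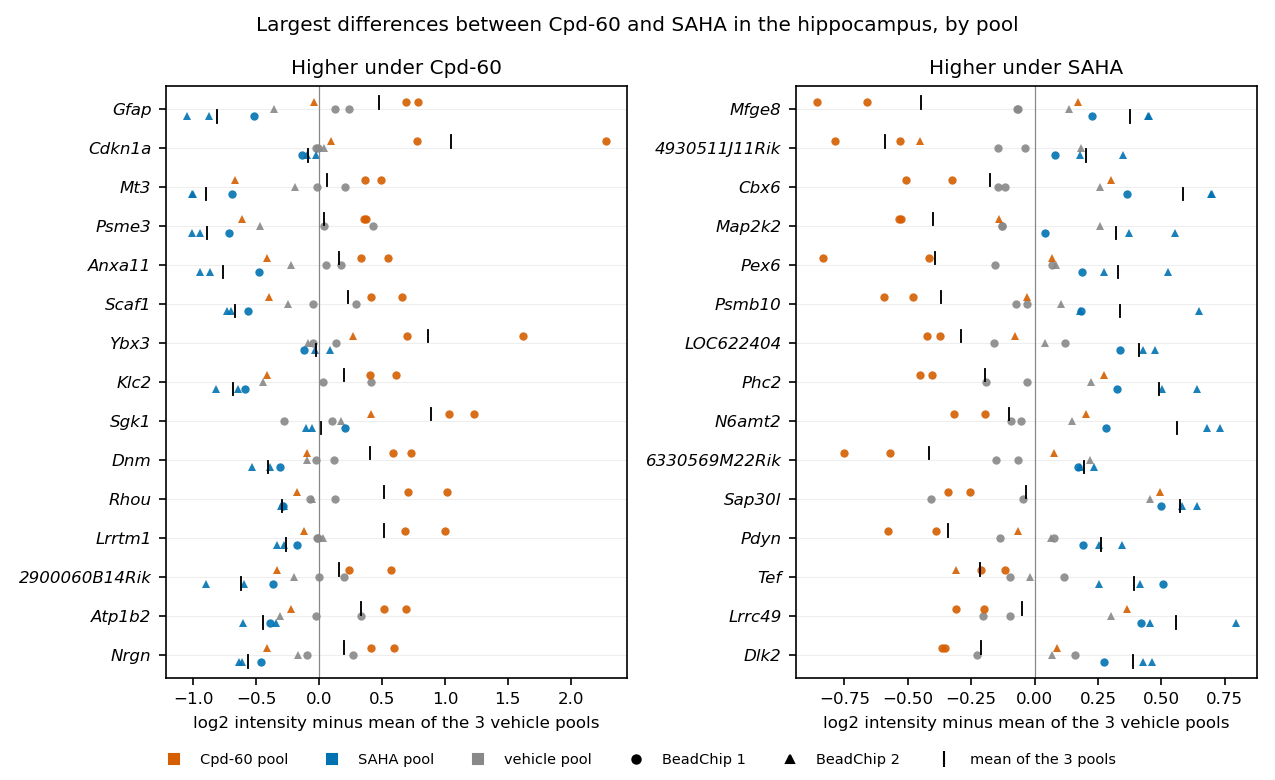
Log2 normalized intensity, minus the mean of the 3 vehicle pools, of the 15 genes with the largest difference in each direction in the HIP. Each point is 1 pool of 2 mice, coloured by treatment and shaped by BeadChip, and ticks mark the means of the 3 pools of a drug. For every gene the 3 Cpd-60 points lie on one side of the 3 SAHA points, since this was part of the rule that chose them. Cpd-60 pool 3 often lies nearest to the SAHA pools.

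Gfap, the intermediate filament of astrocytes, showed the largest difference. It read 11.24, 11.34 and 10.51 in Cpd-60 pools 1 to 3, 10.04, 9.67 and 9.50 under SAHA, and 10.79, 10.68 and 10.19 under vehicle. Every SAHA pool lay below every vehicle pool, Cpd-60 pools 1 and 2 lay above vehicle and Cpd-60 pool 3 lay within its range. The difference was 1.29 (SE 0.22), of which SAHA minus vehicle made -0.81 and Cpd-60 minus vehicle 0.48, and limma's adjusted p was 0.117 without and 0.000338 with the BeadChip block. A second Gfap probe gave 0.92.

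Mt3, the metallothionein of the brain, which binds zinc and copper, followed the same order. Its level was 12.03, 11.91 and 10.87 under Cpd-60, 10.85, 10.53 and 10.54 under SAHA, and 11.75, 11.53 and 11.36 under vehicle. SAHA pools were all below vehicle, and Cpd-60 pool 3 sat next to them while the other 2 Cpd-60 pools sat above vehicle. Psme3, an activator of the proteasome found in the nucleus, read 9.68, 9.66 and 8.70 under Cpd-60 and 8.59, 8.30 and 8.36 under SAHA, with vehicle at 9.73, 9.35 and 8.84. The SAHA and vehicle pools again did not overlap, and Cpd-60 minus vehicle was only 0.04. Anxa11, a calcium-dependent membrane-binding protein (0.92, SE 0.22), Scaf1, a splicing-linked factor that binds RNA polymerase II (0.89), Klc2, a light chain of the transport motor kinesin (0.88), and Nrgn, the calmodulin-binding neurogranin of dendritic spines (0.77), were likewise below vehicle under SAHA (-0.76, -0.67, -0.68 and -0.57) and within 0.23 of it under Cpd-60. With the BeadChip block, limma's adjusted p was 0.044 for Mt3 and for Psme3 and 0.0214 for Anxa11.

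Cdkn1a and Ybx3 showed the opposite order, with SAHA near the vehicle level. Cdkn1a, the cyclin-dependent kinase inhibitor p21 and a long-known target of HDAC inhibitors, read 7.81, 9.32 and 7.13 under Cpd-60, 6.90, 7.02 and 6.94 under SAHA and 7.03, 7.01 and 7.08 under vehicle. Cpd-60 pool 2 alone was far above the rest, pool 1 was moderately above, and pool 3 was just above the vehicle pools. The difference of 1.14 (SE 0.40) was 1.67 on the first BeadChip and 0.15 on the other. Ybx3, a Y-box protein that binds DNA and mRNA, read 8.70, 9.63 and 8.28 under Cpd-60 against 7.89, 7.97 and 8.09 under SAHA and 7.96, 8.14 and 7.92 under vehicle. All 3 Cpd-60 pools exceeded all of the others, pool 2 by most. The difference was 0.89 (SE 0.25), and neither gene passed with the BeadChip block (limma's adjusted p of 0.183 and 0.107).

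Dnm, the GTPase that severs endocytic vesicles, and Atp1b2, a subunit of the sodium pump found in glia, had the drugs on either side of the vehicle mean, with gaps of 0.82 (SE 0.17) and 0.77 (SE 0.22). Dnm read 8.71, 8.57 and 7.88 under Cpd-60, 7.67, 7.59 and 7.45 under SAHA and 8.10, 7.96 and 7.88 under vehicle. SAHA was below all vehicle pools and Cpd-60 pools 1 and 2 were above them. For Dnm, Cpd-60 was 0.41 above vehicle and SAHA -0.41 from it, both at an unadjusted p under 0.05. Rhou, a small GTPase of the cytoskeleton (0.81), and Lrrtm1, a synaptic adhesion protein (0.78), had Cpd-60 means above vehicle by 0.52 each. In both, Cpd-60 pool 3 (7.93 and 8.28) lay below every vehicle pool (8.03 to 8.23 and 8.39 to 8.43). Within the second BeadChip the drugs differed by 0.12 and 0.18. Neither gene passed with the BeadChip block (limma's adjusted p of 0.0868 and 0.0808).

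Mfge8, a secreted bridge between dying cells and phagocytes, had the largest difference in the direction of SAHA. It read 10.34, 10.54 and 11.37 under Cpd-60, 11.43, 11.65 and 11.65 under SAHA and 11.13, 11.13 and 11.34 under vehicle. Cpd-60 pools 1 and 2 were far below vehicle, whereas Cpd-60 pool 3 lay just under the SAHA pools. The difference was -0.82 (SE 0.21). Map2k2, the kinase MEK2 upstream of ERK, was more even between BeadChips (-0.57 and -0.61). Its pools read 8.92, 8.91 and 9.30 under Cpd-60, 9.48, 9.82 and 10.00 under SAHA and 9.31, 9.32 and 9.70 under vehicle. The drugs did not overlap and the vehicle mean lay between theirs, and limma's adjusted p with the BeadChip block was 0.0066. A second Map2k2 probe, of lower mean log2 signal (6.78), gave 0.06.

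A pair of Polycomb proteins, which hold genes in a repressed state, were among the 15. Cbx6 read 9.12, 9.30 and 9.93 under Cpd-60, 10.00, 10.32 and 10.33 under SAHA and 9.51, 9.49 and 9.89 under vehicle. A second Cbx6 probe, of lower mean log2 signal (6.60), gave 0.03. Phc2 read 8.16, 8.20 and 8.88 under Cpd-60, 8.93, 9.25 and 9.11 under SAHA and 8.42, 8.58 and 8.83 under vehicle. In both genes all SAHA pools were above all vehicle pools, and SAHA minus vehicle (0.59 and 0.49) exceeded the distance of Cpd-60 from vehicle (-0.18 and -0.19). Sap30l, a component of the Sin3 HDAC complex, was 0.57 above vehicle under SAHA and -0.03 from it under Cpd-60, but its difference of -0.61 (SE 0.23) was -0.80 on the first BeadChip and -0.12 on the other.

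Pdyn, the precursor of the dynorphin opioid peptides that dentate granule cells make, read 7.74, 7.93 and 8.26 under Cpd-60, 8.51, 8.58 and 8.66 under SAHA and 8.18, 8.40 and 8.38 under vehicle. All SAHA pools were above vehicle, Cpd-60 pools 1 and 2 were below it and Cpd-60 pool 3 lay inside the vehicle range. The difference was -0.61 (SE 0.12), while a second Pdyn probe, of lower mean log2 signal (6.92), gave -0.02. Tef, a PAR bZIP transcription factor whose mRNA follows the circadian clock, read 8.95, 9.04 and 8.85 under Cpd-60, 9.66, 9.57 and 9.41 under SAHA and 9.28, 9.06 and 9.14 under vehicle. Each drug lay on its own side of vehicle in all pools. The Tef difference of -0.60 (SE 0.09) was -0.67 and -0.65 on the BeadChips, with limma's adjusted p at 0.00992 with the BeadChip block, while a second Tef probe gave -0.07. Psmb10, a catalytic subunit of the immunoproteasome, differed by -0.71 (SE 0.15) on one probe and -0.40 on another, and Dlk2, a membrane protein of the Delta-like family, by -0.60 (SE 0.13).

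Together with Tef, a pair of poorly characterized transcripts had the smallest errors for their size among the 15. 4930511J11Rik read 7.16, 7.41 and 7.49 under Cpd-60, 8.02, 8.29 and 8.12 under SAHA and 7.80, 7.90 and 8.13 under vehicle, a difference of -0.79 (SE 0.11) with limma's adjusted p at 0.0066 with the BeadChip block. LOC622404 read 8.20, 8.25 and 8.54 under Cpd-60, 8.96, 9.05 and 9.10 under SAHA and 8.46, 8.74 and 8.66 under vehicle, a difference of -0.70 (SE 0.10). The first was away from vehicle under Cpd-60 (-0.59) and overlapped it under SAHA, while the second was away from it in opposite directions (-0.29 and 0.41). N6amt2, a methyltransferase, read 8.06, 7.94 and 8.46 under Cpd-60, 8.54, 8.99 and 8.94 under SAHA and 8.20, 8.17 and 8.40 under vehicle. There SAHA was above both other groups in all pools and Cpd-60 overlapped vehicle. Pex6, an ATPase of peroxisome import (-0.72), Lrrc49 (-0.60) and 6330569M22Rik (-0.61) differed mostly on the first BeadChip (-0.81, -0.67 and -0.83, against -0.33, -0.26 and -0.13). A second Pex6 probe was higher under Cpd-60 (0.24, unadjusted p of 0.040) and another gave 0.10, so the probes of this gene disagree. For Lrrc49 another probe gave 0.10.

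Of these 30 genes, 7 passed an unadjusted p under 0.05 under all 23 alternatives that gave a test, namely Gfap, Dnm, 4930511J11Rik, LOC622404, Pdyn, Tef and Dlk2, and none of the 30 changed direction. Without the dim SAHA pools 2 and 3, 3 of the 15 higher under Cpd-60 (Gfap, Ybx3 and Dnm) and 6 of the 15 higher under SAHA (4930511J11Rik, Psmb10, LOC622404, Pdyn, Tef and Dlk2) still passed. Without Cpd-60 pool 3 all 30 passed, with differences of 1.02 to 1.61 and of -1.13 to -0.56.

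Genes induced by glucocorticoids were higher under Cpd-60 as a group. Corticosterone acts in the hippocampus through the glucocorticoid receptor, which binds DNA and switches on a set of genes shared by many tissues. Of 23 listed genes tested, 14 (60.9%) were higher under Cpd-60 at an unadjusted p under 0.05 and 0 were higher under SAHA, beside 8.88% and 9.85% of all 15934 genes. Their median difference was 0.31, beside 2e-04 over all genes. The list holds 3 genes that the study picked on these arrays (Sgk1, Tsc22d3 and Sult1a1), so its direction is not independent evidence.

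Sgk1, the serum- and glucocorticoid-regulated kinase, had the second largest difference of the group after Cdkn1a, described above. It read 11.38, 11.19 and 10.57 under Cpd-60, 10.36, 10.05 and 10.10 under SAHA and 9.88, 10.25 and 10.33 under vehicle. All 3 Cpd-60 pools were above all SAHA and vehicle pools, which overlapped each other. The difference was 0.87 (SE 0.19), 0.92 and 0.49 on the BeadChips, with limma's adjusted p at 0.123 without and 0.0491 with the BeadChip block. Ddit4, which restrains the growth kinase mTORC1, read 9.36, 9.59 and 8.75 under Cpd-60, 8.65, 8.73 and 8.68 under SAHA and 8.53, 8.57 and 8.61 under vehicle. Its Cpd-60 pool 3 was only just above SAHA, and the difference was 0.55 (SE 0.16).

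Fkbp5, a co-chaperone that damps the receptor, read 8.11, 8.12 and 7.78 under Cpd-60, 7.73, 7.67 and 7.31 under SAHA and 7.79, 7.51 and 7.66 under vehicle. Drug pools did not overlap, and Cpd-60 pool 3 lay level with the highest vehicle pool. Nfkbia, the inhibitor of NF-kB, read 8.65, 8.55 and 7.64 under Cpd-60, 7.86, 7.50 and 7.46 under SAHA and 7.55, 7.53 and 7.52 under vehicle. Its Cpd-60 pools 1 and 2 stood alone and Cpd-60 pool 3 fell below SAHA pool 1. Per1, a clock gene that also responds to glucocorticoids, read 8.61, 8.83 and 8.07 under Cpd-60, 7.73, 7.97 and 7.87 under SAHA and 8.21, 8.15 and 8.11 under vehicle. Here Cpd-60 pools 1 and 2 were above vehicle, Cpd-60 pool 3 was just below it and all SAHA pools were further below.

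The remaining members past the test were Cdkn1a, Rhob (0.72), a small GTPase of endosomes, the metallothioneins Mt2 (0.51) and Mt1 (0.44), the arrestin-domain gene Arrdc2 (0.43, not detected at a p of at most 0.01 on all 6 drug arrays), Tsc22d3 (0.38, but -0.17 within the second BeadChip), which encodes the anti-inflammatory GILZ, the transcription factors Klf9 (0.31) and Zbtb16 (0.26), and the connexin Gjb6 (0.26). Dusp1 (0.03) and Bcl6 (-0.12) were among the 9 that did not pass. Against vehicle, 14 of the 23 were higher under Cpd-60 (median 0.29), beside 2.77% of all genes. Under SAHA 0 were higher and 1 was lower (median 0.00), beside 5.55% and 6.41% of all genes. The median was 0.41 on the first BeadChip and 0.14 on the other, and with the BeadChip block 13 were higher under Cpd-60, beside 8.6% of all transcripts. Without SAHA pools 2 and 3, 4 passed with a median of 0.28, beside 3.19% of all genes. In the other regions of the same pools, 8 were higher under Cpd-60 than under SAHA in the PFC (median 0.24) and 5 in the NAc (median 0.19), beside 2.79% and 1.74% of all transcripts there, with 0 in the opposite direction in either.

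**Figure D2:**
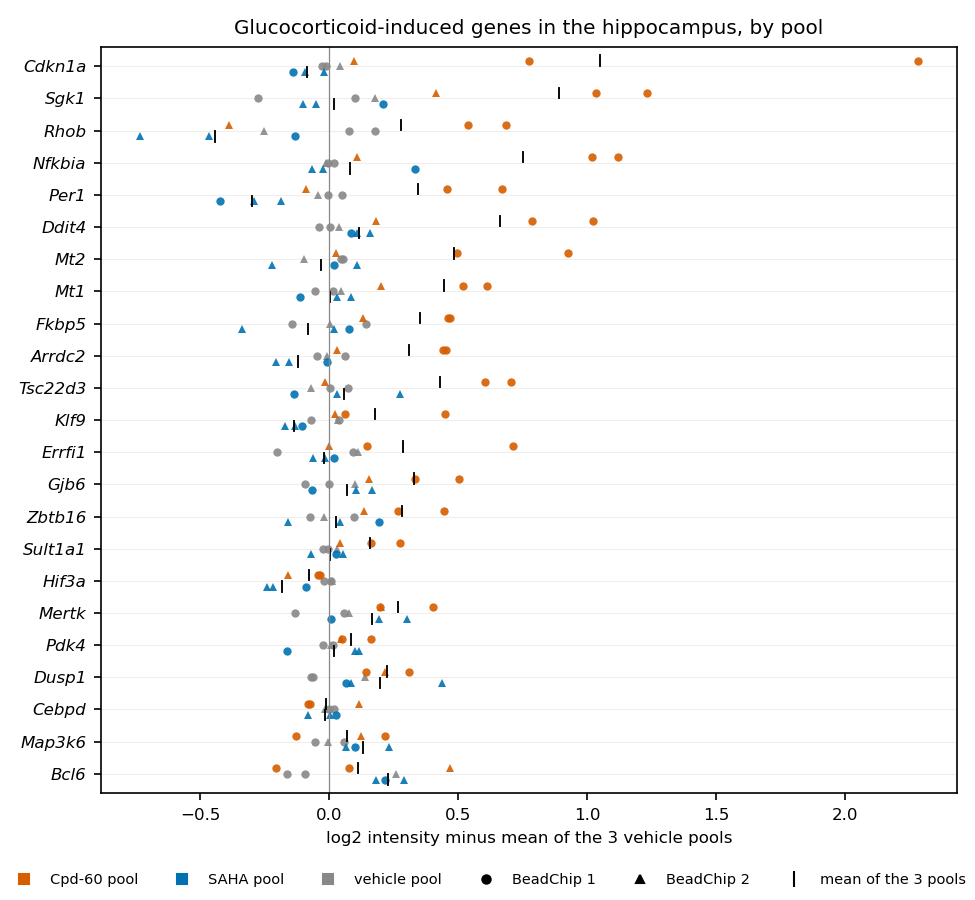
Log2 normalized intensity, minus the mean of the 3 vehicle pools, of the listed glucocorticoid-induced genes in the HIP. Each point is 1 pool of 2 mice, coloured by treatment and shaped by BeadChip, and ticks mark the means of the 3 pools of a drug. SAHA points scatter around the vehicle points, with a median difference from vehicle of 0.00, whereas most Cpd-60 points lie above them.

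The promoters of Sgk1 and Per1 are printed as examples of members past the test. SAHA overlapped vehicle for Sgk1 but lay below it for Per1. Capitals mark the core letters of a glucocorticoid response element (AGAACA on either strand) in Sgk1. In Per1 they mark an E-box of the clock factors (CACGTG, its own reverse complement). Both stretches are the 250 bases before a RefSeq start on GRCm38.p6, 5′ to 3′ on the gene's strand. This is the plus strand for Sgk1 (chr10:21881934-21882183) and for Per1 (chr11:69098699-69098948). The Per1 start used lies inside the gene, which begins at 69095108.
Sgk1: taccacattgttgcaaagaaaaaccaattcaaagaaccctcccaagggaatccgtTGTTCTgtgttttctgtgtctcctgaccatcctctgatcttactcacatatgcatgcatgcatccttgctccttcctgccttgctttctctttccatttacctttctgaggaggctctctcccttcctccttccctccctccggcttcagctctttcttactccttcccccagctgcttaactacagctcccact
Per1: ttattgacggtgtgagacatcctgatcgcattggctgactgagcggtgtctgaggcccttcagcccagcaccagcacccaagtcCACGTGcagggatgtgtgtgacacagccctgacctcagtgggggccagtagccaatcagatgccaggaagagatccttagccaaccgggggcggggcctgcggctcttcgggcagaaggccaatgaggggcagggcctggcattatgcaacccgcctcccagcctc
In the Sgk1 stretch AGAACA lies on the other strand, 195 to 190 bases before the start, and the E-box of Per1 lies 166 to 161 bases before it. Of the 21 listed genes with a promoter entry, 3 (14.3%) held AGAACA, beside 16.1% of all 27018 promoters and 11% of those of genes tested in the HIP, and 4 (19%) held CACGTG, beside 6.04% and 8.16%. A match is a description of letters and not a site.

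Metallothioneins, which buffer zinc, were higher under Cpd-60 in 3 of 3 genes tested, beside 8.88% of all genes. Mt1 and Mt2 were already counted among the glucocorticoid-induced genes, and Mt3 is not in that list. The 3 genes differed in which drug left vehicle. Mt1 read 13.51, 13.60 and 13.19 under Cpd-60, 12.88, 13.02 and 13.08 under SAHA and 13.00, 12.93 and 13.03 under vehicle. Its Cpd-60 pools were above all others, and SAHA and vehicle overlapped, in contrast to Mt3, whose SAHA pools were the ones away from vehicle. Leaving out SAHA pools 2 and 3, or taking the 95th percentile as a covariate, left 1 of the 3 past the test.

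Histone genes formed the clearest group in the direction of SAHA. Most core histone genes lie in clusters, are transcribed in bulk during DNA replication and make mRNA without a poly(A) tail, although a share of their transcripts in non-dividing cells is polyadenylated. Of 51 histone genes tested, 23 (45.1%) were higher under SAHA and 2 (3.92%) higher under Cpd-60 at an unadjusted p under 0.05, beside 9.85% and 8.88% of all genes, with a median difference of -0.20. The 23 divided by class. Clustered H2A genes contributed 10 of 15 and clustered H2B genes 8 of 9, against 4 of 15 clustered H3 and H4 genes, 0 of 2 clustered H1 genes and 1 of 10 genes outside the clusters (H2afv). The 2 higher under Cpd-60, the linker histone H1fx (0.62) and the replacement histone H3f3b (0.25), both lay outside the clusters.

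Promoters of 4 clustered genes are printed because these have the largest differences among those with a promoter entry, with CCAAT on either strand (CCAAT or ATTGG) in capitals. Each is the 120 bases before the RefSeq start on GRCm38.p6, 5′ to 3′ on the gene's strand. Hist1h2an (now H2ac22) lies at chr13:21787249-21787368 on the minus strand, Hist1h2bf (H2bc7) at chr13:23574208-23574327 on the minus strand, Hist1h2ao (H2ac23) at chr13:21810247-21810366 on the plus strand and Hist1h2ai (H2ac13) at chr13:21716292-21716411 on the plus strand.
Hist1h2an: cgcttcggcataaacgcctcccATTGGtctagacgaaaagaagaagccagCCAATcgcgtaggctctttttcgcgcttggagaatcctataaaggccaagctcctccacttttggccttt
Hist1h2bf: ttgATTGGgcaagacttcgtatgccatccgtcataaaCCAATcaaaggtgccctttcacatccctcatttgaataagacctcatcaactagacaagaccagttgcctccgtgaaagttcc
Hist1h2ao: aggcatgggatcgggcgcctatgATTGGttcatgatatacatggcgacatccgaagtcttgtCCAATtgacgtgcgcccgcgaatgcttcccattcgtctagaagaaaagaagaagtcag
Hist1h2ai: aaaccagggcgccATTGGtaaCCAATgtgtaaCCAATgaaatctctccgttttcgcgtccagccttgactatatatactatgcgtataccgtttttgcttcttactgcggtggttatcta
In the 250 bases before the start, all 15 clustered H2A genes and all 7 clustered H2B genes with an entry held CCAAT, beside 34.5% of all promoters and 76.1% of the 46 histone genes with an entry. The octamer ATGCAAAT, searched on both strands, was in 8 of the 46 (17.4%), beside 1.62% of all promoters. CCAAT was in 6 of 13 clustered H3 and H4 genes (46.2%), 55.6% of histone genes outside the clusters and 85% of histone genes higher under SAHA. Since all H2A and H2B genes with an entry held it, its presence could not divide the genes within those 2 classes. Any part of the motif in the result was not tested.

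Hist1h2an, an H2A gene, read 7.26, 7.34 and 7.44 under Cpd-60, 7.79, 7.84 and 7.99 under SAHA and 7.58, 7.63 and 7.67 under vehicle. The 3 groups did not overlap, with vehicle in the middle. The difference was -0.53 (SE 0.07), -0.49 and -0.48 on the BeadChips, and limma's adjusted p was 0.114 without and 0.0193 with the BeadChip block. Hist1h2bf, an H2B gene, read 9.53, 9.53 and 9.88 under Cpd-60, 9.97, 10.13 and 10.31 under SAHA and 9.96, 9.86 and 10.09 under vehicle. Drug pools did not overlap, SAHA overlapped vehicle, and the difference was -0.49 (SE 0.11). Hist1h2ao and Hist1h2ai each differed by -0.46 (SE 0.14 and 0.13), and were below vehicle under Cpd-60 by -0.41 and -0.33 with SAHA within 0.12 of vehicle.

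For the clustered H2A genes the distance from vehicle lay mostly with Cpd-60, 9 of the 15 being lower under Cpd-60 than vehicle and 1 higher under SAHA at an unadjusted p under 0.05. For H2B these counts were 4 and 1 of 9. Over all genes, 3.54% were lower under Cpd-60 than vehicle and 5.55% higher under SAHA. Of 34 histone genes on chromosome 13, 18 were higher under SAHA, and of 8 on chromosome 3, 4. With the BeadChip block 23 of the 51 were higher under SAHA and 1 under Cpd-60, beside 7.78% and 8.6% of all transcripts, but without SAHA pools 2 and 3 these counts were 4 and 1, beside 3.8% and 3.19% of all genes, with a median of -0.11. With the raw 95th percentile of each array as a covariate they were 3 and 1, and the part of array brightness in the result was not tested further. In the same pools, 8 histone genes were higher under SAHA and 0 under Cpd-60 in the PFC (median -0.10), and 3 and 0 in the NAc (median -0.09), where 2.58% and 1.63% of all transcripts were higher under SAHA. Clustered histone genes are near-identical in sequence, so 1 probe may read several of them and the count of genes is uncertain. A second Hist1h2bc probe gave 0.06 where the first gave -0.47.

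**Figure D3:**
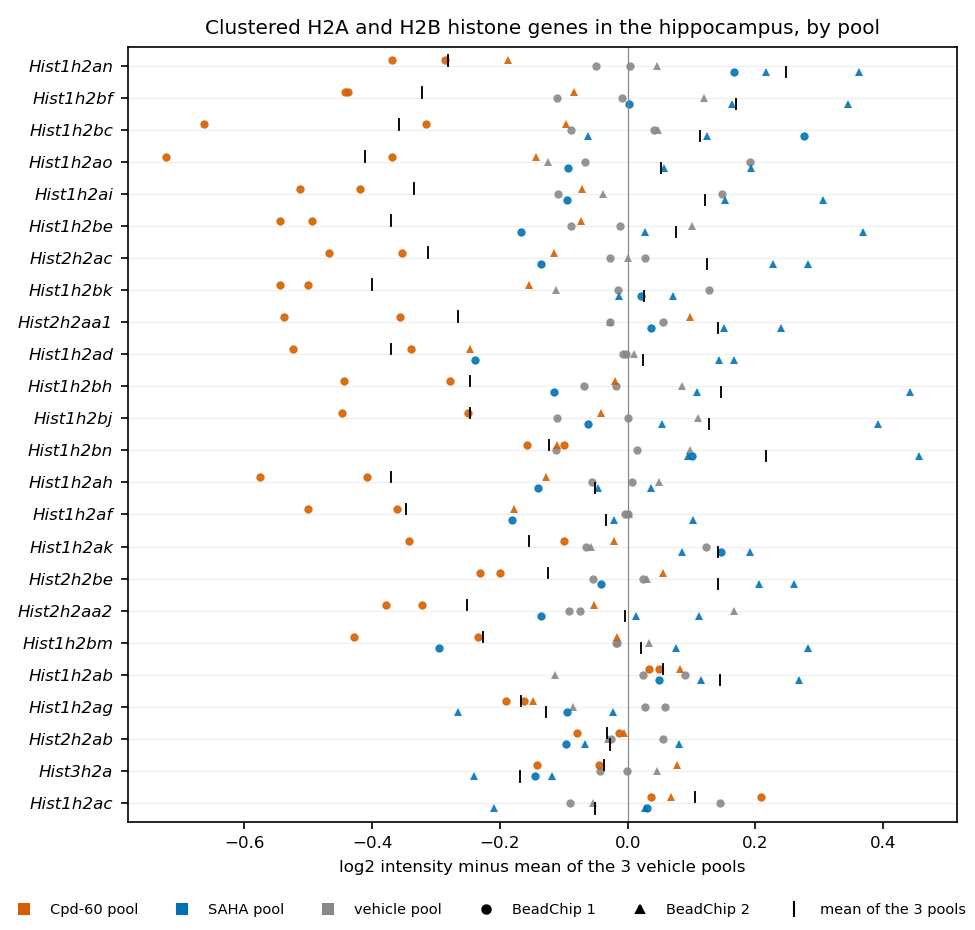
Log2 normalized intensity, minus the mean of the 3 vehicle pools, of the 15 clustered H2A and 9 clustered H2B genes tested in the HIP. Each point is 1 pool of 2 mice, coloured by treatment and shaped by BeadChip, and ticks mark the means of the 3 pools of a drug. In most genes Cpd-60 pools 1 and 2 lie furthest below vehicle, while SAHA points scatter level with it or above it.

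Among markers of cell types, those of reactive glia had the largest share higher under Cpd-60 (75%, beside 8.88% of all genes). Of 8 tested genes of reactive glia, 6 were higher (Gfap, Lcn2, C4b, Osmr, Vim and Cxcl10), 2 of them by 1.2-fold, with a median of 0.22 over the 8. They did not move as one, since C4b, a complement protein, was above vehicle under both drugs (0.50 and 0.26), Vim, an intermediate filament, was -0.18 from vehicle under SAHA, and Lcn2, a secreted siderophore-binding protein, was high in Cpd-60 pool 2 alone. Of 12 astrocyte genes, Gfap, the water channel Aqp4 (0.40) and Gjb6 were higher (25%, beside the same 8.88%) and 9 did not pass. The summed intensity of the 8 reactive genes ranged from 2943 to 4541 under Cpd-60, 2184 to 2377 under SAHA and 2615 to 3053 under vehicle, and that of the 12 astrocyte genes from 20051 to 21301, 18969 to 19522 and 17581 to 19326. Gfap, with a mean log2 level of 10.44, is in both sums and weighs heavily in the first, which therefore does not describe the 8 genes evenly. The SAHA range was lowest for reactive genes but not for astrocyte genes, and the part of glial content in these results was not tested. Without SAHA pools 2 and 3 the median over the 8 reactive genes was 0.21. With the raw 95th percentile as a covariate 2 of the 8 passed, beside 2.94% of all genes higher under Cpd-60. Lcn2, Osmr and Cxcl10 were not detected at a p of at most 0.01 on all 6 drug arrays, so that their values lie near background.

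Myelin genes were higher under Cpd-60 in 5 of 13 oligodendrocyte markers, among them Mobp (0.53), Mal (0.39), Mbp (0.30) and Mog (0.21), a share of 38.5% beside 8.88% of all genes. With SAHA pools 2 and 3 left out, and also with the 95th percentile as a covariate, 1 of the 13 passed. Mobp, which encodes a protein that compacts myelin, read 11.20, 11.15 and 10.78 under Cpd-60, 10.76, 10.27 and 10.53 under SAHA and 10.82, 11.15 and 10.81 under vehicle. Cpd-60 overlapped vehicle and every SAHA pool was below both. Other probes varied, those of Mobp giving 0.75, 0.22, 0.14 and 0.12, of Mbp 0.39, 0.26, 0.10 and -0.16 and of Mal 0.20 and 0.10. Among these, only the 0.75 and 0.39 passed an unadjusted p under 0.05 by limma. The summed intensity of the 13 markers was 30395 to 32352 under Cpd-60, 25384 to 28027 under SAHA and 29028 to 32665 under vehicle, so that the SAHA pools lay below both other groups. Sox10, the transcription factor of the lineage, went the other way (-0.39), through Cpd-60 pools 1 and 2, and was 0.09 within the second BeadChip. In the PFC the Mbp difference was -0.34 at an unadjusted p of 0.014, and its HIP difference exceeded the mean of PFC and NAc by 0.43 (unadjusted p of 0.018 by limma).

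Of 11 endothelial markers, 3 were higher under SAHA (27.3%, beside 9.85% of all genes), among them the tight-junction gene Cldn5 (-0.49). Of the same 11, 0 were higher under Cpd-60, beside 8.88%. Among 10 interneuron markers, the neuropeptides Cort (-0.45) and Npy (-0.30) were higher under SAHA and Gad1, which makes GABA, higher under Cpd-60 (0.21). Cort read 7.54, 7.50 and 7.61 under Cpd-60, 7.76, 8.07 and 8.16 under SAHA and 8.03, 7.99 and 8.03 under vehicle. Here all Cpd-60 pools lay below all others, and SAHA was -0.02 from vehicle. By limma, 0 of 13 microglial, 0 of 9 choroid plexus, 0 of 3 blood and 0 of 7 cortical markers passed an unadjusted p under 0.05. Choroid plexus sums varied widely within every group (7407 to 11141 under Cpd-60, 4344 to 14388 under SAHA and 4375 to 13995 under vehicle). Markers of thalamus (3 higher under Cpd-60 and 1 under SAHA of 7) and striatum (2 and 1 of 8) moved in both directions. The part of dissection in the results was not tested.

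Genes of neuronal membranes and of the cytoskeleton were more often higher under Cpd-60 than under SAHA in the full fit, where 8.88% and 9.85% of all genes were. Of 32 glutamate receptor and postsynaptic genes, 9 (28.1%) were higher under Cpd-60 and 1 under SAHA (median 0.11), including the kainate receptor Grik5 (0.62), the scaffold Dlgap4 (0.53, but -0.02 within the second BeadChip), the NMDA receptor Grin2b (0.43) and the scaffold Shank3 (0.38). Grik5 read 8.42, 8.25 and 7.74 under Cpd-60, 7.66, 7.52 and 7.37 under SAHA and 7.89, 7.94 and 7.73 under vehicle. Cpd-60 overlapped vehicle while every SAHA pool was below it. The 1 gene higher under SAHA, the AMPA receptor Gria1, gave -0.28 on the probe used but 0.31, 0.32 and 0.41 on 3 other probes. Of 15 genes of GABA synthesis and reception, 4 were higher under Cpd-60 and 0 under SAHA.

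Potassium channel genes were higher under Cpd-60 in 12 of 62 and under SAHA in 1, with a median of 0.01. Kcnip2, a modulator of A-type channels, differed by 0.46 and Kcna1, an axonal channel, by 0.41. Of 27 synaptic vesicle genes, 7 were higher under Cpd-60, among them the vesicular glutamate transporter Slc17a7 (0.55), Sv2a (0.52) and Syn1 (0.52), while 4 were higher under SAHA, among them the vesicle SNARE Vamp2 (-0.45, but 0.01 within the second BeadChip). A second Syn1 probe was higher under SAHA (-0.25, unadjusted p of 0.034). Of 39 actin and tubulin genes, 11 were higher under Cpd-60 and 3 under SAHA (median 0.14). The tubulin Tubb4 was at 0.72, the actin-binding Tmsb10 at 0.50 and Cfl1 at 0.42, against the tubulin Tuba4a at -0.50. Without SAHA pools 2 and 3 the counts higher under Cpd-60 and SAHA were 3 and 0 for glutamate genes, 1 and 2 for potassium channels, 1 and 0 for GABA genes, 2 and 0 for synaptic vesicle genes and 5 and 1 for actin and tubulin genes. Potassium channels then had a smaller share higher under Cpd-60 (1.61%) than all genes (3.19%). With the 95th percentile as a covariate the counts were 3 and 0, 2 and 2, 1 and 1, 3 and 0, and 2 and 1 in the same order. Cfl1 was not detected at a p of at most 0.01 on all 6 drug arrays.

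Genes of protein turnover were more often higher under SAHA than under Cpd-60 in the full fit. Of 36 proteasome subunits, 9 (25%) were higher under SAHA, with Psmb10, Psmd13 (-0.46) and Psmd7 (-0.35) the largest, and 3 higher under Cpd-60, with Psme3 the largest. Without SAHA pools 2 and 3 these counts were 3 and 1, and with the 95th percentile as a covariate 1 and 1. Of 62 chaperone genes, 10 (16.1%, beside 9.85% of all genes) were higher under SAHA and 2 under Cpd-60, and under those settings 2 and 1, then 3 and 2. They included the co-chaperones Dnajb2 (-0.55) and Bag1 (-0.48), the chaperonin subunit Cct4 (-0.41) and the mitochondrial Dnaja3 (-0.36). Bag1 read 10.76, 10.74 and 11.26 under Cpd-60, 11.31, 11.48 and 11.43 under SAHA and 10.82, 11.02 and 11.15 under vehicle. Its SAHA pools were above all others and Cpd-60 pools 1 and 2 were the lowest. Medians of both lists were small (-0.06 and -0.01), and most members did not pass the test. Other Psmd7 probes gave 0.12 and 0.19 where the probe used gave -0.35. Cytosolic ribosomal proteins (4 higher under Cpd-60 and 9 under SAHA of 59) and Rab GTPases (4 and 8 of 49) had shares higher under SAHA (15.3% and 16.3%) like that of the chaperones, and oxidative phosphorylation (4 and 7 of 74) had 9.46%.

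**Figure D4:**
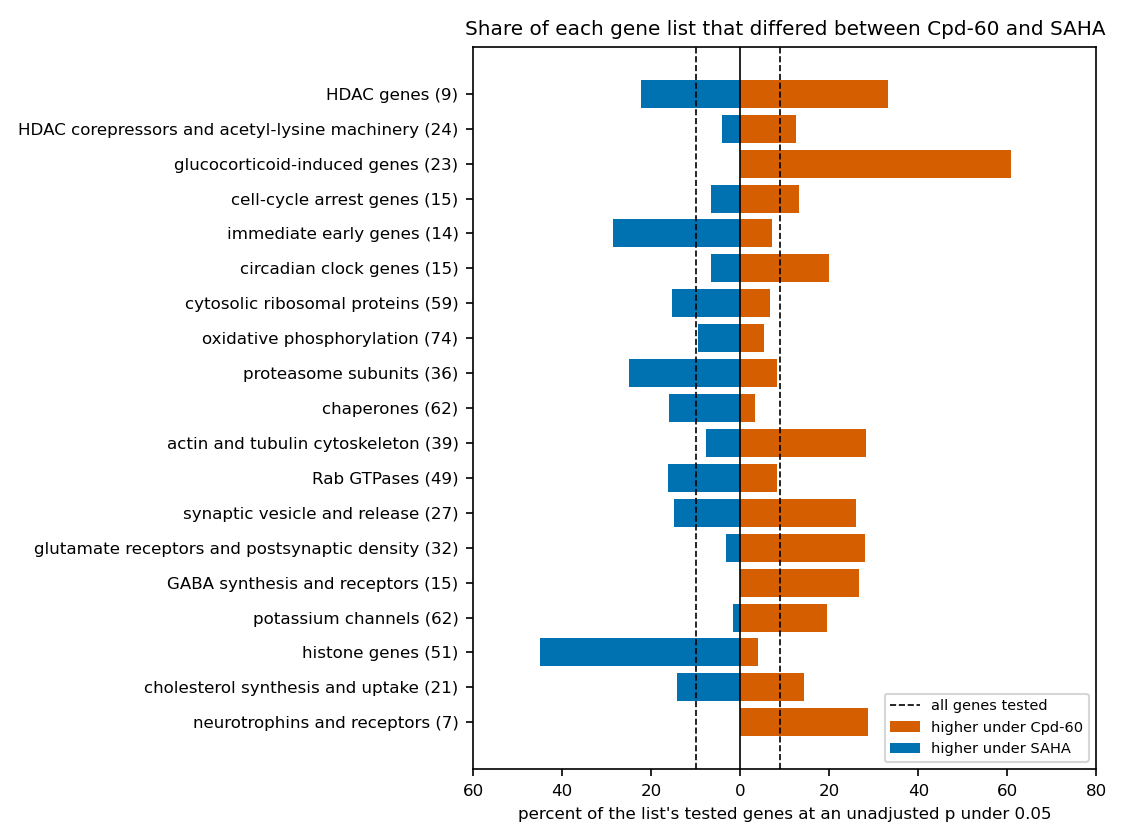
Share of tested genes in each list that were higher under Cpd-60 or higher under SAHA at an unadjusted p under 0.05 in the HIP, in percent, with the share over all genes for comparison (8.88% and 9.85%). Numbers in brackets are genes tested. Of the lists drawn, glucocorticoid-induced genes (60.9%) reach furthest in the direction of Cpd-60 and histone genes (45.1%) furthest in that of SAHA.

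HDAC genes, the drugs' own targets, gave calls in both directions that depended on the arrays used. Of 9 HDAC genes tested, Hdac11 (0.26), Hdac4 (0.26, but -0.06 within the second BeadChip) and Hdac7 (0.21, not detected at a p of at most 0.01 on all 6 drug arrays) were higher under Cpd-60 (33.3%, beside 8.88% of all genes), and Hdac2 (-0.34) and Hdac8 (-0.20) higher under SAHA (22.2%, beside 9.85%). These counts of 3 and 2 became 1 and 2 with the BeadChip block, 0 and 1 without SAHA pools 2 and 3, and 0 and 2 with the 95th percentile as a covariate. Hdac2, the class I enzyme that Cpd-60 is selective for together with HDAC1, read 9.71, 9.58 and 10.01 under Cpd-60, 10.26, 9.96 and 10.12 under SAHA and 9.88, 9.96 and 10.05 under vehicle. Cpd-60 pool 3 fell within the SAHA range, and the difference was -0.61 on the first BeadChip and -0.03 on the other. Of 24 genes of HDAC corepressors and acetyl-lysine machinery, 3 were higher under Cpd-60 and 1 under SAHA.

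Immediate early genes, which neuronal activity switches on within minutes, gave calls in both directions. Junb was higher under Cpd-60 (0.59), and Egr1 (-0.43), Egr4 (-0.39, but 0.09 within the second BeadChip), Egr2 (-0.32) and Jun (-0.27) were higher under SAHA, while 9 of 14 did not pass. These are shares of 7.14% and 28.6%, beside 8.88% and 9.85% of all genes. When SAHA pools 2 and 3 were left out, and also with the 95th percentile as a covariate, 0 of the 14 passed an unadjusted p under 0.05 by limma. Egr2 read 6.53, 6.67 and 6.63 under Cpd-60 against 6.79, 6.97 and 7.04 under SAHA and 6.70, 6.87 and 6.83 under vehicle. Its drug pools did not overlap, but it was not detected at a p of at most 0.01 on all 6 drug arrays, so its values lie near background. Clock genes also split, Per1 and Nr1d1 (0.31, also near background by this measure), which encodes the repressor REV-ERBα, being higher under Cpd-60 and Tef higher under SAHA. Among 15 genes of cell-cycle arrest, Cdkn1a and Ccnd2 (0.39) were higher under Cpd-60 and Ccnd1 (-0.39), a cyclin of the G1 phase, higher under SAHA. Fdps, an enzyme of cholesterol synthesis, was higher under SAHA (-0.40, SE 0.08), with 3 genes of that pathway in each direction of 21. Of 7 neurotrophin genes, Ntrk3 (0.53, but -0.06 within the second BeadChip), the receptor of the neurotrophin NT3, and Vgf (0.29), a peptide induced by neurotrophins, were higher under Cpd-60.

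Genes that the study named from these arrays are given as values, since they were chosen on them. Cacng5, an auxiliary AMPA receptor subunit, read 7.94, 8.17 and 7.58 under Cpd-60, 7.43, 7.30 and 7.23 under SAHA and 7.55, 7.28 and 7.43 under vehicle. All Cpd-60 pools lay above all others. Its difference was 0.58 (SE 0.13). Agxt2l1, a lyase of phosphoethanolamine, differed by 0.48 (SE 0.16), Usp54 by 0.30, the lipid transporter Mfsd2 by 0.28 and Igfbp5, which binds insulin-like growth factors, by -0.25. Differences of Sult1a1 (0.16), Per2 (-0.18), Mef2c (-0.17), Rock2 (-0.07) and Qdpr (0.06) did not pass an unadjusted p under 0.05 on the probe used. Other probes passed in the opposite direction for Mef2c (0.41, unadjusted p of 0.0086) and Rock2 (0.24, unadjusted p of 0.018). Qdpr, which regenerates the cofactor of monoamine synthesis, was below vehicle under both drugs (-0.29 and -0.35).

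Most differences were smaller on the BeadChip that held Cpd-60 pool 3. Of the 2063 transcripts past an unadjusted p under 0.05 and 1.2-fold, 1924 (93.3%) had the same sign within both BeadChips, beside 55% of all tested probes. The higher share follows in part from choosing them on the same arrays. Of these transcripts, 1415 reached 1.2-fold within the first BeadChip alone, 201 within the other alone and 321 within both. The median size of the difference was 0.41 on the first and 0.17 on the other, where Cpd-60 is represented by pool 3. This pool lay nearer to the SAHA mean than to the mean of the other 2 Cpd-60 pools for 1583 of the 2063, and for 13426 of all 22275. Of the 195 transcripts that passed with the BeadChip block, 163 reached 1.2-fold within both. For 66% of the 2063 the vehicle mean lay nearer to Cpd-60 than to SAHA, beside 57.3% of all tested probes.

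**Figure D5:**
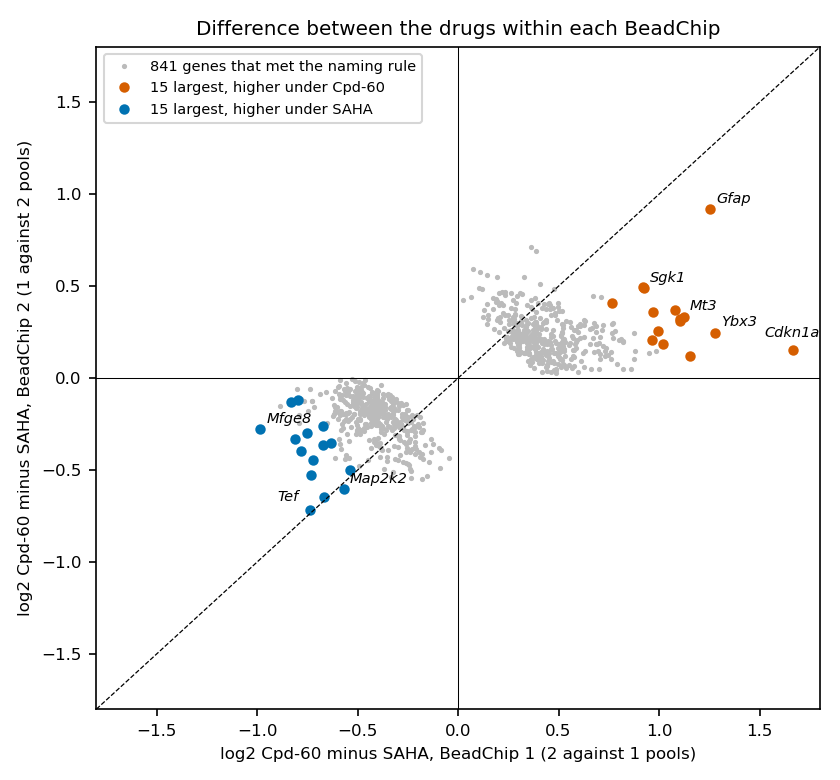
Cpd-60 minus SAHA (log2) within the first BeadChip, on the horizontal axis, against the same difference within the other, on the vertical axis, for the 408 genes higher under Cpd-60 and the 433 higher under SAHA that met the naming rule in the HIP. All points share a sign because the rule required it. The 15 largest genes higher under Cpd-60 all lie under the dashed line of equal differences, Gfap nearest to it among the named ones, whereas Tef and Map2k2 lie close to the line.

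The same contrast gave fewer calls in the other regions of the same pools, 5.36% of 21513 transcripts in the PFC and 3.36% of 22142 in the NAc at an unadjusted p under 0.05. After Benjamini-Hochberg adjustment limma left 0 in either region. The HIP difference minus the mean of the other 2 regions passed an unadjusted p under 0.05 for 1314 of 18610 transcripts (7.06%) and an adjusted p for 0 (smallest 0.432), so no gene is shown to be particular to the HIP after adjustment. Of the 408 genes higher under Cpd-60, 60% had the same sign in the PFC and 66.1% in the NAc. In that direction 31 and 35 of them passed an unadjusted p under 0.05. Of the 433 higher under SAHA the shares were 71.2% and 72%, with 30 past it in each region. Over all tested probes, whatever their sign in the HIP, 52.8% were higher under SAHA in the PFC and 52.4% in the NAc. The share of all probes that kept their HIP sign was not computed.

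Sgk1 and Rhou were higher under Cpd-60 at an unadjusted p under 0.05 in every region. Sgk1 was at 0.53 in the PFC and 0.64 in the NAc (unadjusted p of 0.021 and 0.027 by limma). Rhou was at 0.55 and 0.45 (0.014 and 0.022). Gfap did not pass there, at 0.17 and 0.12, and its HIP difference exceeded their mean by 1.14 (unadjusted p of 0.0058 by limma). Mt3 and Psme3 were -0.18 and -0.05 in the PFC. Tef was the only 1 of the 30 largest with an opposite difference past the test in the PFC, 0.26 there and 0.31 in the NAc, and its HIP difference was -0.89 from their mean (unadjusted p of 0.0014). Cbx6 (-0.89), Phc2 (-0.79) and Pdyn (-0.65) were also lower than in the other regions by this measure, with unadjusted p values of 0.0061, 0.0075 and 0.0027.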

How the data were processed

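RNA of mouse HIP, PFC and NAc was hybridized to Illumina MouseWG-6 arrays, 1 array per pool of 2 mice. For each of 45281 probes the authors deposited a raw intensity, from which neither background nor array effects had been removed. A detection p-value was deposited beside each intensity. Values of the 27 arrays from these groups were quantile normalized jointly, floored at 1 and put on a log2 scale. Probes whose detection p did not exceed 0.2 on all 3 arrays of 1 or more HIP groups, as the methods' presence threshold was read, were fitted in R 4.3.3 with limma 3.58.1 on the 9 HIP arrays without covariates. The difference between regions was fitted on 27 arrays with the pool as a random block. Figures were drawn in Python 3.11.15 with matplotlib 3.10.9.

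Genes named are the 15 largest in each direction among genes detected at p of at most 0.01 on all 6 arrays, past an unadjusted p under 0.05 and 1.2-fold, with pools separated and the same sign on both BeadChips, up to 4 members of each list by size of difference, and genes the study named. A gene is given by its tested probe of highest mean signal. The text also names some further list members, promoter-bearing genes and second probes, chosen after their values were seen. Just inside and outside the limit of 15 lay 0.77 and 0.75 (4930572J05Rik) higher under Cpd-60, and -0.597 and -0.596 (Mfn1) higher under SAHA. The members, the lists and the alternatives were chosen with earlier results of these data known. A list of genes that differ between C57BL/6 substrains was added after seeing the values. Of its 6 genes tested, 2 (33.3%) were higher under Cpd-60, beside 8.88% of all genes, and 2 passed with the BeadChip block. In the PFC and the NAc 2 of 6 were also higher under Cpd-60, beside 2.81% and 1.82% of all genes. Against vehicle, 2 were higher under Cpd-60 (beside 2.77%) and 0 under SAHA. The part of substrain or supplier in the results was not tested. Remaining lists gave 1 gene higher under Cpd-60 of 9 for CA fields, 1 higher under SAHA of 7 for dentate gyrus and of 5 for newborn granule neurons, and 0 of 2 for nuclear-retained RNAs. For Cpd-60 pool 2 the title and source name mice 3 and 4, and were used, although the description names mice 1 and 2.

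The fit was tested on simulated data with 200 changed transcripts. Alternatives were the BeadChip or the pool number as a block, neqc with an offset of 16, cyclic loess, other array sets and detection limits, the 95th percentile as a covariate, array quality weights, Tukey's test and leaving out pools. Of the probes' symbols, 22005 of 30869 matched a RefSeq symbol or synonym. Of 153 genes examined by name, 113 had a promoter entry. The precision is limited by the number of arrays, and no read depth applies. CI-994 arrays were used in 1 alternative only. Values of some list members and study genes are not reported here.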

Additional observations from a re-analysis of the deposited data

Results flagged for a closer look

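Tef was higher under SAHA than under Cpd-60 in the HIP (-0.60) but higher under Cpd-60 in the PFC (0.26), with all pools of each drug on opposite sides in these 2 regions. The difference between these 2 regions alone was not tested. Against the mean of PFC and NAc the HIP difference was -0.89, with an unadjusted p of 0.0014 and no transcript past an adjusted p by limma.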

How the results depend on the processing

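At an adjusted p under 0.05, where the count was 0, limma called 195 transcripts with the BeadChip as a block, 1344 with array quality weights and 52 with both, the latter added after seeing the data. Leaving out 1 pool gave 0 to 3013, and only leaving out Cpd-60 pool 3 gave any. At an unadjusted p under 0.05, 3976 became 1383 with the raw 95th percentile as a covariate, 1585 without SAHA pools 2 and 3, 1439 by Tukey's test and 2268 to 5981 without 1 pool (2268 without Cpd-60 pool 2, 2363 without Cpd-60 pool 1 and 5981 without Cpd-60 pool 3). With 1.2-fold, 2063 became 988, 999 and 575 under those settings, 3879 with neqc, 3193 with array quality weights and 1208 to 3883 without 1 pool (1208, 1240 and 3883 without Cpd-60 pools 2, 1 and 3). Under the other normalizations, array sets and detection limits these counts stayed within 1.5 times. The HIP difference against the other regions was called for 1314 transcripts at an unadjusted p under 0.05, for 2235 against the PFC alone, 823 against the NAc alone and 571 to 3003 without 1 pool (571 without SAHA pool 3, 2386 without SAHA pool 1, and 653, 690 and 3003 without Cpd-60 pools 1, 2 and 3). The cause of these shifts was not tested. Arrays give no depth, and the dimmer SAHA arrays limit what can be said of low-signal probes.

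With the pool number as a replicate block 1213 transcripts passed the adjusted threshold, but same-numbered pools correlated in their deviations at 0.196, -0.078 and 0.255, so the numbers do not pair the pools.

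Single genes changed sign under some settings. Within the second BeadChip, Tsc22d3 was -0.1675, Hdac4 -0.0606, Dlgap4 -0.0231, Ntrk3 -0.0627, Mpped1 -0.0056, Egr4 0.0868, Vamp2 0.0125 and Sox10 0.0905. With the 95th percentile as a covariate, Mef2c was 0.0391, Ttr -1.0445, Enpp2 -0.5374, Clic6 -0.645, Kl -0.1614, Hbb-b1 0.2884, Nrn1 -0.0191, 6330527O06Rik 0.0487 and Fezf2 0.0299. Without SAHA pools 2 and 3, Rock2 was 0.0093, Ttr -0.6675, Enpp2 -0.4037, Clic6 -0.3588, Kl -0.0448, Hbb-b1 0.3859, Nrn1 -0.0531, 6330527O06Rik 0.0092, Fezf2 0.0471 and Pde10a -0.017. With the BeadChip block, Ttr was -0.0886, Hbb-b1 0.0136 and Nrn1 -8e-04, and with array weights added Ttr was -0.2912 and Clic6 -0.0841. With cyclic loess, Pde10a was -0.0194 and Drd1a -0.1366, and with array weights alone Cx3cr1 was -0.0164. Leaving out 1 pool at a time, Qdpr ranged from -0.0423 to 0.1162, Cx3cr1 from -0.043 to 0.2104, Ttr from -0.1244 to 0.8932, Hbb-b1 from -0.2272 to 0.0861 and Nrn1 from -0.0194 to 0.0425. Ttr, Enpp2, Clic6 and Kl are choroid plexus markers, which are abundant in that tissue and did not pass with any sign in the fit reported.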
